A study of Schizosaccharomyces pombe with 6 samples.

Results

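Calibrated ChIP-seq of the SUMO ligase Pli1 was set against the same precipitation from untagged cells of fission yeast (Schizosaccharomyces pombe), at the resolution of single summits. The Pli1-12Pk list held 299 called regions, each with a start, an end, a score and a summit, the base of its highest signal. After 15 summits in the outermost 30 kb of both ends of chromosome III, which bear the rDNA, were left out, 284 summits remained. Their regions lay close together, and joining those within 500 bp of each other left 22. A summit is thus only the highest point of its region, and a gene without a summit can still lie in a called region. They were split by whether the summit base lay within any of the 3535 untagged peaks, of which 3526 had their summit outside those ends. There were 120 Pli1 summits outside untagged peaks and 164 inside them.

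The series has 6 samples, 1 ChIP library and 1 input each for cells with Pli1-12Pk, cells with Nse2-12Pk and an untagged strain. The Pli1-12Pk cells carried Pli1 fused to the Pk epitope, and the untagged cells carried no such fusion, while the labels name no other allele and no drug for either strain. Both cultures grew exponentially in rich medium (YES) and received budding yeast cells with Ku70-cMyc as a calibrator before formaldehyde fixation and precipitation with an antibody against Pk. The inputs were not analysed here. Each side of the comparison rested on 1 library, so there was no replicate check and no test was made. The interval after a share is its exact (Clopper-Pearson) 95% interval and covers counting error only. The sources used here do not give the read depth behind the lists, and a score ranked regions only within its own list.

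Pli1 is a ligase of the PIAS family, which attaches the small protein modifier SUMO to nuclear proteins. A precipitation from untagged cells shows which sites are recovered when the antibody has no epitope to bind; in yeast, highly transcribed genes are known for such recovery. The genes of tRNAs and of 5S rRNA are read by RNA polymerase III, and in tRNA genes the assembly factor TFIIIC binds promoter elements inside the gene, the A box and the B box. In fission yeast, tRNA genes also border the heterochromatin of centromeres.

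Of the 284 Pli1 summits, 57.7% lay inside untagged peaks (interval 51.8 to 63.6%), whereas untagged peaks held 18.7% of all genome positions analysed. Away from untagged peaks, the summits were at tRNA and other small RNA genes, at genes of long non-coding RNA (lncRNA), between genes and in coding sequence. Inside untagged peaks they were mostly in coding sequence, and most of them were beside no gene of the lists used here. By count, ribosomal protein genes had the most inside summits (24 of 141 genes), followed by translation factor (7 of 13), glycolysis (5 of 18) and heat shock genes (5 of 17). As a share of the list, ribosomal protein genes were the lowest of these (17.0%, against 53.8%, 27.8% and 29.4%). Over all protein-coding genes the share was 3.19%. Positions are given for the reference assembly ASM294v3, counting from 1, and all sequences are from its RefSeq record.

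Of the 120 summits outside untagged peaks, 7 fell inside a tRNA gene. These 7 genes are shown on their coding strand because the summit lay in the transcribed gene, where the internal promoter is. Capitals mark the letters GTTCNANNC, the core of the B box, which a search of the coding strand found in 156 of 171 tRNA genes (91.2%).
SPCTRNAHIS.03 (chrIII:71400-71471, plus strand): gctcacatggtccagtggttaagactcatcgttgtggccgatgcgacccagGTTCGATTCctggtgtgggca
SPBTRNAPRO.07 (chrII:2939715-2939786, plus strand): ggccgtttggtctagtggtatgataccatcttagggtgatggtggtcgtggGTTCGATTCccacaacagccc
SPATRNASER.04 (chrI:5437747-5437828, plus strand): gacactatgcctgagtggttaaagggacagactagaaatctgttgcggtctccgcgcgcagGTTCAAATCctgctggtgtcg
SPBTRNAPHE.03 (chrII:2576376-2576448, minus strand): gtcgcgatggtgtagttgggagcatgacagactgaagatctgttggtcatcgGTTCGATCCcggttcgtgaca
SPBTRNASER.06 (chrII:3350594-3350688, plus strand): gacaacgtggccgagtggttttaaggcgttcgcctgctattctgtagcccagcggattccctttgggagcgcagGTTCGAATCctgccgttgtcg
SPATRNAVAL.02 (chrI:703075-703147, minus strand): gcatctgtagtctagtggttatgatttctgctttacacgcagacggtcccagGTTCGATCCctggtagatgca
The remaining gene, SPBTRNAPRO.06 (chrII:2319292-2319363, plus strand), has the same 72 bases as SPBTRNAPRO.07.

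In all 7 genes the summit lay upstream of the capital letters. It was base 3 of SPCTRNAHIS.03, base 42 of SPBTRNAPRO.07 and base 33 of SPBTRNAPRO.06. It was base 16 of SPATRNASER.04, base 19 of SPBTRNAPHE.03, base 11 of SPBTRNASER.06 and base 20 of SPATRNAVAL.02. The capitals began at base 52 in the tRNA-His and tRNA-Pro genes, at base 53 in the tRNA-Phe and tRNA-Val genes, and at bases 62 and 75 in the tRNA-Ser genes.

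Also outside untagged peaks, 4 of the highest tRNA summits lay in a spacer with a tRNA-Ile gene on 1 side and a tRNA-Ala gene on the other, in and beside centromere 2. The spacer beside SPBTRNAILE.06 is shown because it is the same, base for base, at all 4 sites (73 bp, 1 distinct sequence). The capital marks the summit base.
SPBTRNAILE.06 spacer (chrII:1618367-1618439, plus strand): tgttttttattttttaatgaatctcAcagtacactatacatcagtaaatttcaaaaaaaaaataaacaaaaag
The highest summit of all 284 also lay outside untagged peaks, in the lncRNA gene SPNCRNA.954 on chromosome I, and is shown with 30 bases on each side.
SPNCRNA.954 (chrI:3991614-3991674, plus strand): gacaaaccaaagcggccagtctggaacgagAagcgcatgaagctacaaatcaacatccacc

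The sites inside untagged peaks are shown by 5 loci picked for high scores in both lists and for summits close together. Other high-scoring loci had summits farther apart. At psu1 (Pli1 5714, untagged 948) the nearest untagged summit was 985 bp away. Capitals mark the Pli1 summit base and the untagged summit base.
ssa2 (chrIII:2059110-2059170, plus strand): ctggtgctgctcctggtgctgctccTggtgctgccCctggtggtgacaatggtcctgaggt
SPNCRNA.7192 (chrIII:1079578-1079630, plus strand): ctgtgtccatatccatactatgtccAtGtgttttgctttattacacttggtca
dbp2 (chrII:3662958-3663019, minus strand): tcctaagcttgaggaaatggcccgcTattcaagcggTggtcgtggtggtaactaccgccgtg
eno101 (chrII:2202386-2202457, plus strand): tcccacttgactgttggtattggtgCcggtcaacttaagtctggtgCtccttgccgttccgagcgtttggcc
adh1 (chrIII:1592133-1592219, plus strand): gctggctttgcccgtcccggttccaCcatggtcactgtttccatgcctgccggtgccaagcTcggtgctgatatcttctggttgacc
The Pli1 summits are positions 2059145 (ssa2), 1079605 (SPNCRNA.7192), 3662983 (dbp2), 2202411 (eno101) and 1592194 (adh1). The Pli1 and untagged summits lay 10 bp apart at ssa2, 2 bp at SPNCRNA.7192, 11 bp at dbp2, 21 bp at eno101 and 36 bp at adh1.

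The share of Pli1 summits inside untagged peaks was alike on the 3 chromosomes. It was 59.1% on chromosome I (81 of 137), 54.0% on chromosome II (54 of 100) and 61.7% on chromosome III (29 of 47), with overlapping intervals. By score it did not fall steadily. It was 60.6% among the 71 highest scores, then 62.0%, 70.4% and, among the 71 lowest, 38.0% (interval 26.8 to 50.3%). Among the 20 highest scores 10 lay outside and 10 inside.

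Region length moved with the share. In Pli1 regions of at least 10 kb, 63.8% of summits lay inside untagged peaks (136 of 213, interval 57.0 to 70.3%), and in shorter regions 39.4% (28 of 71). None of the 29 summits in regions under 2 kb did, and none of those regions held an untagged peak. In all, 38 of the 120 outside summits were in regions that held no untagged peak, so they could not have been inside. Median region length was 20718 bp for outside summits and 36073.5 bp for inside summits, and median scores were 2173 and 2534. Pli1 score and region length were correlated over the 284 regions (Spearman's rho 0.607, a description, since both come from the same calls). In regions of at least 10 kb the untagged peaks took up a median of 17.7% of the region around outside summits and 19.3% around inside summits.

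The feature at the summit base differed between the sets, beside a difference in the genome positions open to each. Of the outside summits, 41 lay in coding sequence (34.2%, interval 25.8 to 43.4%), where 48.4% of all positions outside untagged peaks did. Of the inside summits, 145 did (88.4%, interval 82.5 to 92.9%), where coding sequence made up 94.8% of positions inside untagged peaks. The high coding share of inside summits was thus close to that of the untagged peaks, and a little below it.

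A further 40 outside summits lay in lncRNA genes and in no other gene (33.3%, interval 25 to 42.5%), against 15.0% of positions outside untagged peaks. For inside summits the count was 10 (6.1%, interval 2.96 to 10.9%), against 1.78% of positions inside. Counted together with those that overlap other genes, lncRNA genes held 49.2% of outside summits (interval 39.9 to 58.4%, against 47.7% of positions). They held 40.2% of inside summits (interval 32.7 to 48.2%, against 48.6% of positions). Untranslated regions held 8 outside summits (6.67%, against 20.2% of positions) and 4 inside summits (2.44%, against 1.84%). No annotated gene lay at 20 outside summits (16.7%, interval 10.5 to 24.6%, against 11.8%) and at 4 inside summits (2.44%, against 0.501%).

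Small RNA genes (tRNA, 5S rRNA, snRNA and snoRNA) held 9 outside summits (7.5%, interval 3.49 to 13.8%), where they make up 0.298% of positions outside untagged peaks. They held 1 inside summit (0.61%), where they make up 0.0622% of positions inside. Long terminal repeats held no summit of either set.

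**Figure D1:**
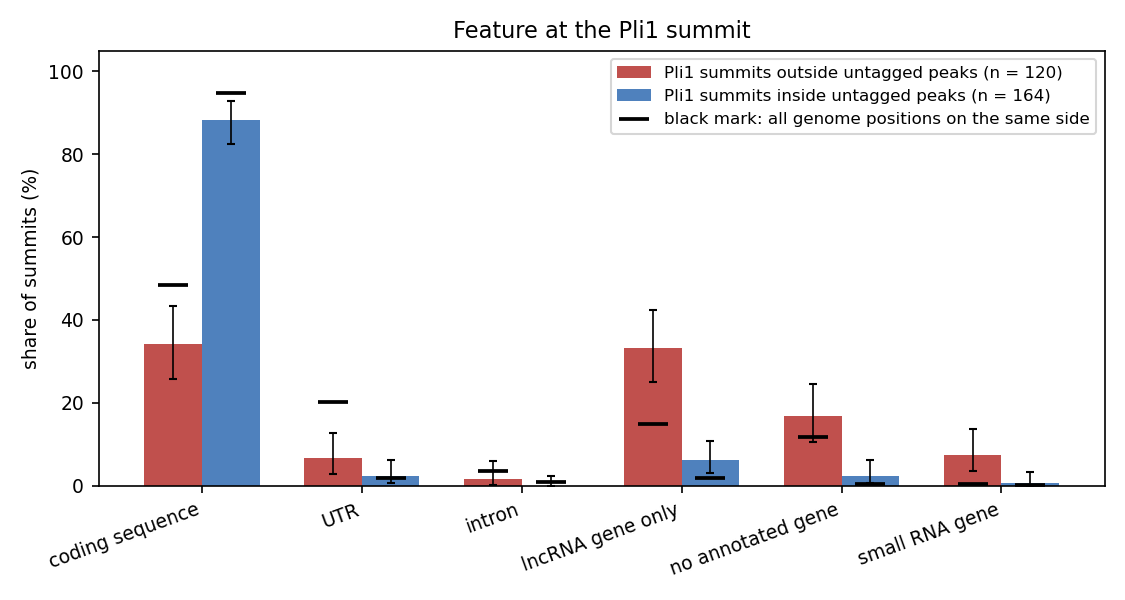
Share of Pli1 summits (vertical axis, %) in each kind of feature, for the 120 summits outside untagged peaks (red) and the 164 inside (blue). Error bars are exact 95% intervals and black marks give all genome positions on the same side. Inside summits stand at 88.4% for coding sequence, below their mark of 94.8%. Both sets stand above their marks for lncRNA genes alone (outside 33.3% against 15.0%, inside 6.1% against 1.78%). Outside summits also stand above their mark for small RNA genes, which held 1 inside summit.

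Beside tRNA genes the 2 sets stood far apart. A tRNA gene lay within 200 bp of 16 outside summits (13.3%, interval 7.82 to 20.7%) and of 3 inside summits (1.83%, interval 0.379 to 5.25%). The outside summits were at 20 of the 171 tRNA genes (11.7%), whereas 1.41% of all 5107 protein-coding genes had an outside summit within 200 bp. No untagged peak touched any of these 20 tRNA genes, which the choice of summits outside peaks favours in genes this short. Of all 171, 13 were touched (7.6%). A summit at a tRNA gene thus had little untagged peak to fall into: 7.51% of tRNA gene positions lay in untagged peaks, compared with 31.1% of coding positions.

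The 4 spacer summits had the highest scores among the outside tRNA summits. They had scores of 7950 (SPBTRNAILE.06 and SPBTRNAALA.09, 26 and 48 bp away), 7179 (SPBTRNAILE.08 and SPBTRNAALA.11), 7149 (SPBTRNAILE.05 and SPBTRNAALA.08) and 6567 (SPBTRNAILE.07 and SPBTRNAALA.10). These ranks were 12, 16, 17 and 24 of the 284. Every 50-mer within 150 bp of these summits (301 of 301) occurs elsewhere in the genome, so reads of that length cannot be assigned to 1 of the 4 sites, although per the file headers only uniquely mapped reads were used. The 4 scores cannot be read as 4 separate sites.

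The other 12 outside tRNA summits had scores from 1859 to 3763 and were spread over the 3 chromosomes. SPBTRNAHIS.02 had the highest of these (3763, summit 14 bp away), followed by SPCTRNAHIS.03 (3527, in the gene) and SPBTRNAARG.05 (3304, 13 bp). Scores of 3125 and 2800 were found in the identical genes SPBTRNAPRO.07 and SPBTRNAPRO.06. The tRNA-Ser genes SPATRNASER.02, SPATRNASER.04 and SPBTRNASER.06 had 3110 (7 bp), 2754 and 2382. They were followed by SPBTRNAPHE.03 with 2577, SPATRNAASP.02 with 2133 (13 bp), SPATRNAGLY.01 with 1928 (14 bp) and SPATRNAVAL.02 with 1859.

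Each of these 12 summits lay in or within 14 bp of the gene. Around 11 of them some 50-mers were repeated (11 to 52 of 301 starting positions), and around SPBTRNAARG.05 none was. The nearest untagged edge was 348 bp away at SPBTRNAPRO.07 and 5903 bp at SPBTRNAILE.06, the nearest and the farthest of the 16 summits. Of the 16 summits, 14 lay outside the centromere intervals. With summits near any repeated 50-mer left out, the tRNA share was 1.1% outside and 0.0% inside untagged peaks.

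By amino acid, the 20 genes were 4 of 12 tRNA-Ala, 4 of 9 tRNA-Ile, 3 of 13 tRNA-Ser, 2 of 4 tRNA-His, 2 of 9 tRNA-Pro and 1 each for Arg, Asp, Gly, Phe and Val. The 13 tRNA-Leu, 12 tRNA-Lys, 11 tRNA-Asn, 10 tRNA-Glu and 10 tRNA-Thr genes had no outside summit, nor had the smaller Met, Gln, Tyr, Cys and Trp groups. At the 11.7% of all tRNA genes with an outside summit, groups of this size can hold none. By annotation, 3 of the 11 tRNA-Asn genes had an inside summit, among them SPCTRNAASP.07. Apart from the 4 Ala and Ile pairs, no amino acid had more than 3 genes with an outside summit.

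The highest of the 3 inside summits at tRNA genes (6816) lay, like the spacer summits, between a pair of tRNA genes in fully repeated sequence. These were SPCTRNAARG.13 (23 bp away) and SPCTRNAASP.07 (65 bp) in centromere 3, in an untagged peak with a score of 584 (rank 124 of 3526). Both of the others lay between a tRNA gene and a 5S gene: beside SPCTRNAASN.06 and SPRRNA.06 (4434) and beside SPBTRNAASN.02 and SPRRNA.39 (2855). The untagged peaks there were weak, with scores of 109 (rank 2103) and 64 (rank 2955).

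Of the 36 genes for 5S rRNA, 3 had an outside summit (8.33%, against 1.41% of all protein-coding genes). These were SPRRNA.28 (2520, 8 bp away), SPRRNA.15 (1804, in the gene) and SPRRNA.34 (1293, 11 bp). The 2 inside summits (5.56% of the genes, against 3.19%) are those beside SPRRNA.06 and SPRRNA.39, at 149 and 161 bp from the 5S gene. The 4 other RNA polymerase III genes listed had no summit within 200 bp in either set. Counting tRNA, 5S and those genes together, RNA polymerase III genes stood beside 19 outside summits (15.8%, interval 9.81 to 23.6%) and 3 inside summits (1.83%).

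Of the 72 snRNA and snoRNA genes, 5.56% had an outside summit, against 1.41% of all protein-coding genes. Outside summits were at snoR69b (4030, 45 bp away), at the pair snoZ3 and snoZ4 (3798, 14 and 136 bp) and in snu2 (2738), the gene of the spliceosomal U2 RNA. The single inside summit (1.39% of the genes, against 3.19%) was in snoU14, whose RNA acts in rRNA processing. It had a score of 16516, second in the Pli1 list, in an untagged peak that ranked 57 (score 742). None of these 4 summits had a repeated 50-mer nearby.

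The letters GTTCGANTC, a stricter form of the B-box core searched on both strands in 300 bp around the summit, were found at 10 outside summits (8.33%, interval 4.07 to 14.8%) and 4 inside summits (2.44%). Of all 41705 windows of 300 bp along the genome, 0.607% hold them. They are found in 63.2% of tRNA genes. The HomolD box CAGTCACA, a promoter element of fission yeast ribosomal protein genes, was searched the same way and was at no summit of either set. It is in 0.566% of all windows, a share that the intervals of both sets hold (0.0 to 3.03% outside, 0.0 to 2.22% inside). Within 300 bp upstream it is found at 63.1% of ribosomal protein genes. Summits at those genes lay in the gene or past its end, where the window searched did not reach that upstream stretch.

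Most genes of the protein synthesis and carbon metabolism lists with a Pli1 summit had it inside an untagged peak. Untagged peaks touched 54.3% of all protein-coding genes, and 3.19% had an inside Pli1 summit within 200 bp. Translation factor genes had an outside summit at 1 of 13 and inside summits at 7 of 13 (53.8%). The outside summit was at tif51 (3373, 119 bp from the gene). The inside summits were at tef103 (6055), tef3 (4549), tef102 (3934), tif1 (3419), tef5 (3041), eft202 (2964) and tif6 (2264). All 13 genes were touched by an untagged peak.

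Glycolysis and fermentation genes had an outside summit at 0 of 18 and inside summits at 5 of 18 (27.8%). These were adh1 (7440; alcohol dehydrogenase), eno101 (6423; enolase), pdc101 (4295; pyruvate decarboxylase), pyk1 (4066; pyruvate kinase) and tpi1 (3773; triosephosphate isomerase). All 18 were touched by an untagged peak. Heat shock and stress genes likewise had an outside summit at 0 of 17 and inside summits at 5 of 17 (29.4%): ssa2 (5228), hsp90 (4246), sks2 (4071), pss1 (2698) and ssa1 (1012), which code for chaperones.

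Ribosomal protein genes, the largest protein-coding list, had summits of both kinds. There were 9 genes with an outside summit of 141 (6.38%) and 24 with an inside summit (17.0%). As shares of summits these were 7.5% of outside (interval 3.49 to 13.8%) and 14.6% of inside summits (interval 9.61 to 21.0%). Untagged peaks touched 89 of the 141 genes (63.1%).

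The 9 with an outside summit were rps29 (3494), rps2202 (3220), rpl2302 (2711), rps2502 (2676), rpl31 (2609), rpl39 (2396), rpp103 (2261), rpl29 (2148) and rpl3703 (1723). No untagged peak touched any of the 9, which the choice of summits outside peaks favours in genes this short. The nearest untagged edge was 366 bp from the summit at rps29 and 4873 bp at rpl31. Among the 24 with an inside summit, the highest were rpl8 (4054), rps2602 (3836), rps3 (3595), rps1401 (3546) and rps1001 (3461), and the lowest was rps2302 (1801). The Pli1 scores of the 2 groups overlapped over most of their range.

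The genes with outside summits had the lower median length, with overlapping ranges. Their median length was 511 bp (380 to 799 bp, n = 9), compared with 742 bp for those with an inside summit (530 to 1128 bp, n = 24) and 680 bp for all 141. Untagged peaks had a median length of 559 bp and none was under 324 bp. No comparison was made with only those ribosomal protein genes that no untagged peak touched. Whether gene length bears on the split was not tested.

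The smaller lists held few summits. The list of 19 transport genes had outside summits beside pma1 (6845, 189 bp away) and ptr2 (2155, 195 bp). The gene pma1 codes for the plasma membrane proton pump. An inside summit lay in the hexose transporter gene ght2 (3448). The list leaves out other transporter genes, among them pho842, zrt1 and vht1, which held inside summits. These counts therefore cover its members only. The list of 18 genes for one-carbon units, methionine and thiamine had an outside summit in nmt1 (3037) and inside summits in thi2 (7690) and thi9 (4481). Both nmt1 and thi2 code for enzymes of thiamine synthesis. The 11 histone genes had an outside summit in hhf1 (2205, histone H4) and an inside summit near htb1 (4475, 124 bp, histone H2B). Counts this small cannot be set against the 1.41% (outside) and 3.19% (inside) of all protein-coding genes.

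The Tf2 retrotransposons had no outside summit and 1 inside summit, in Tf2-1 (1966), though untagged peaks touched all 13. The listed iron and phosphate genes had no summit of either set within 200 bp (0 of 12), and untagged peaks touched 11. The lists for the SUMO pathway (15 genes, among them pli1), the Smc5/6 complex (8), fork barrier and termination factors (6) and marker genes (6) also had none. Over all protein-coding genes the share was 1.41% for outside and 3.19% for inside summits. Lists this small can hold none at those shares. Over the 8 protein-coding lists that cover protein synthesis, metabolism, transport, stress and chromatin, 14 outside summits (11.7%, interval 6.53 to 18.8%) and 45 inside summits (27.4%, interval 20.8 to 34.9%) had a member within 200 bp. No class or list lay beside 84 outside summits (70.0%) and 114 inside summits (69.5%).

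**Figure D2:**
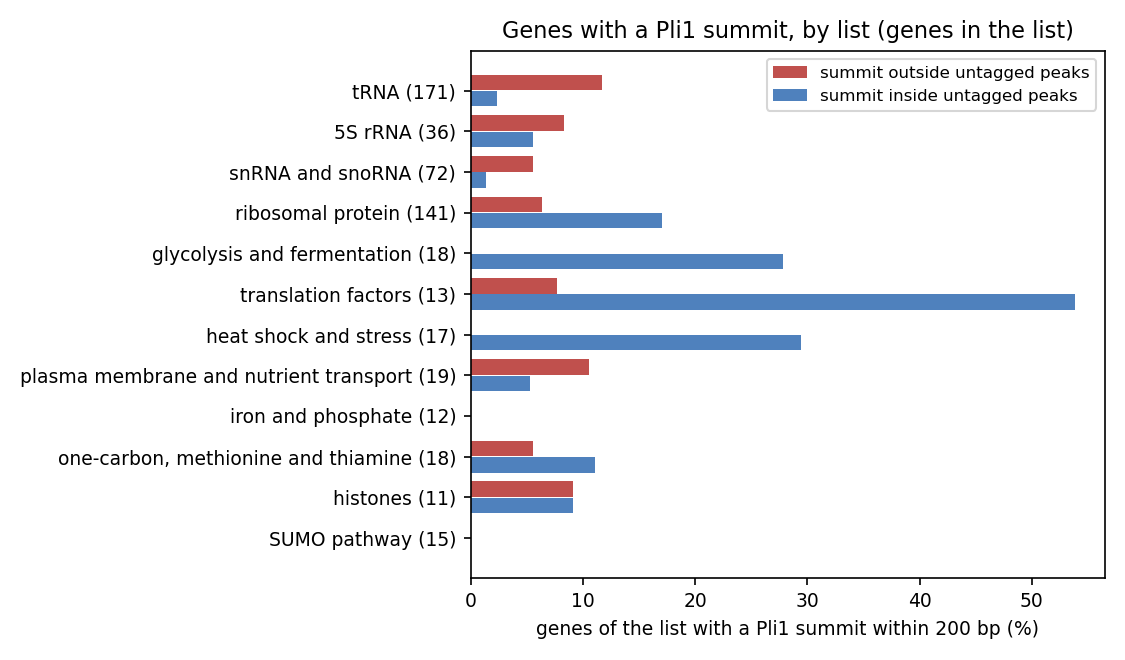
Genes of each list with a Pli1 summit within 200 bp, as a share of the list (horizontal axis, %), for summits outside untagged peaks (red) and inside (blue), with the size of each list in brackets. Outside summits were at 11.7% of tRNA genes, and inside summits at 53.8% of translation factor genes.

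The 15 outside summits with the highest scores were mostly not in coding sequence. SPNCRNA.954 on chromosome I had 27867, the highest score of the list. Its summit lay 186 bp from SPAPB15E9.02C and 232 bp from pfl2, a flocculin gene. A score of 16223 was found where mug115 and SPAC56F8.13 overlap on opposite strands, and 13637 between the lncRNA genes SPNCRNA.1389 and SPNCRNA.1390, which overlap there. The untranslated region of rgp1 had 8627. Next came 3 of the tRNA spacers (7950, 7179 and 7149) and the lncRNA genes SPNCRNA.472 and SPNCRNA.6984 (7606).

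Then followed pof9, an F-box protein gene (6956, at 96.3% of its length), SPCC1672.01 (6940), 223 bp from sap1, which codes for a DNA-binding protein that stalls replication forks, and SPNCRNA.3728 beside pma1 (6845). The list ends with SPAC17A2.11 (6581), the remaining tRNA spacer (6567), SPNCRNA.1550 (5761), 256 bp from the glyceraldehyde-3-phosphate dehydrogenase gene tdh1, and SPNCRNA.2944 (5614). Of the 15, 6 lay in lncRNA genes alone. No 50-mer was repeated around 11 of them, and every 50-mer was repeated around the 4 tRNA spacers.

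The 15 highest inside summits led with snoU14 (16516). The next were lncRNA genes, prt2 (13463, untagged score 157), SPNCRNA.1197 (12862, untagged 543) and the centromeric SPNCRNA.7192 (11678, untagged 1306), then a site beside the silent mating-type gene mat3-Mc (9983, untagged 675). Protein-coding genes among them were ubi4 (9116; polyubiquitin), thi2 (7690), adh1 (7440), eno101 (6423) and dbp2 (6086; an RNA helicase). The rest were nam1 (8527), prl53 (7048), SPCTRNAARG.13 (6816), SPNCRNA.1375 (6055, 198 bp from tef103) and a site in the untranslated region of rad26, 162 bp from atd1 (6047). No 50-mer was repeated around 11 of the 15.

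**Figure D3:**
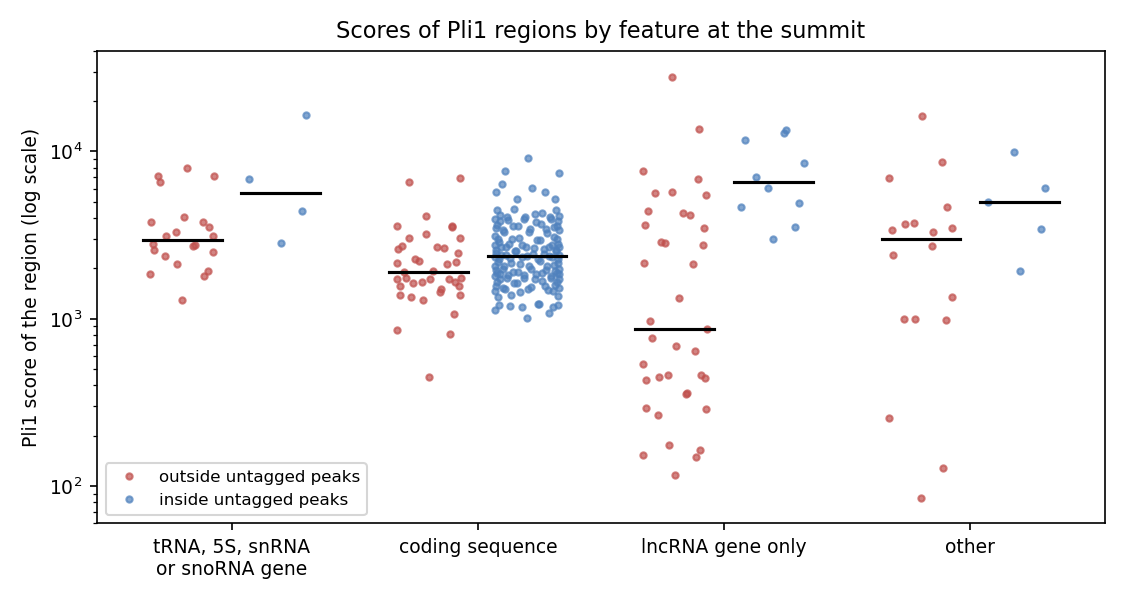
Pli1 score of each region (vertical log axis) by the feature at its summit, outside untagged peaks (red) and inside (blue), with a line at each median. Small RNA genes within 200 bp form the first group. Medians outside and inside were 2955 and 5625 for small RNA genes, 1914 and 2369 for coding sequence, and 873 and 6551.5 for lncRNA genes alone.

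The lncRNA summits outside untagged peaks were of 2 sorts by region. Of the 40, 25 were in regions under 10 kb. In regions under 2 kb, 22 of 29 outside summits lay in lncRNA genes alone (75.9%, interval 56.5 to 89.7%), none lay near a small RNA or ribosomal protein gene, and the median score was 444. Examples are SPNCRNA.6662 (4167, near the right-hand end of chromosome II), SPNCRNA.781 (972), SPNCRNA.1425 (873) and SPNCRNA.944 near pma1 (360). At 8 of the 29 summits lncRNA genes overlapped each other. The examples in short regions were picked with their values in view.

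In regions of at least 10 kb the picture was closer to the tRNA side. There, a small RNA gene was within 200 bp of 21 of 77 outside summits (27.3%, interval 17.7 to 38.6%), with 32 in coding sequence (41.6%) and 15 in lncRNA genes alone (19.5%). Their median score was 2800, compared with 2698 for the 136 inside summits in such regions. Of those inside summits, 120 were in coding sequence (88.2%) and 4 near a small RNA gene (2.94%). The contrast between the sets for tRNA genes thus held in long regions, with 15 of 77 outside and 3 of 136 inside.

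Where a summit lay in no protein-coding gene, the genes on each side were compared. Of 68 such outside summits, 23 lay between divergent genes (33.8%, against 44.2% of intergenic positions outside untagged peaks), 38 between genes in tandem (55.9%, against 47.0%) and 7 between convergent genes (10.3%, against 8.89%). The nearest gene edge was a start for 40 (58.8%, against 67.7%). Of only 15 inside summits, 2 lay between divergent genes, 7 between tandem genes and 6 between convergent genes. All 6 outside and inside shares had intervals that held the share of positions on the same side.

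Few summits lay near the start of a protein-coding gene. Within 200 bp of a start were 8 outside summits (6.67%, interval 2.92 to 12.7%, against 18.8% of positions outside untagged peaks) and 2 inside summits (1.22%, against 1.68%). Within 200 bp of an end were 20 outside summits (16.7%, against 16.8%) and 15 inside summits (9.15%, interval 5.21 to 14.6%, against 2.64%).

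Along the gene, summits of both sets lay toward the end. The first 20% of the gene held 1 of 51 outside summits in genes (1.96%, against 24.6% of gene positions outside untagged peaks) and 8 of 149 inside summits (5.37%, against 7.56%). The last 40% held 12 and 17 of the outside summits and 66 and 26 of the inside summits, by successive 20%. The median place was 66.0% of the gene for outside and 65.6% for inside summits, compared with 47.1% and 52.2% for gene positions on the same sides. Both sets were therefore nearer the end than the positions open to them, and their medians were alike. Outside summits in the last 20% included pof9 (6956), ssm4 (4117), tif223 (3603) and asn1 (3578). Of the 51 genes that hold an outside summit, 15 were touched elsewhere by an untagged peak, a count that the choice of summits outside peaks lowers.

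**Figure D4:**
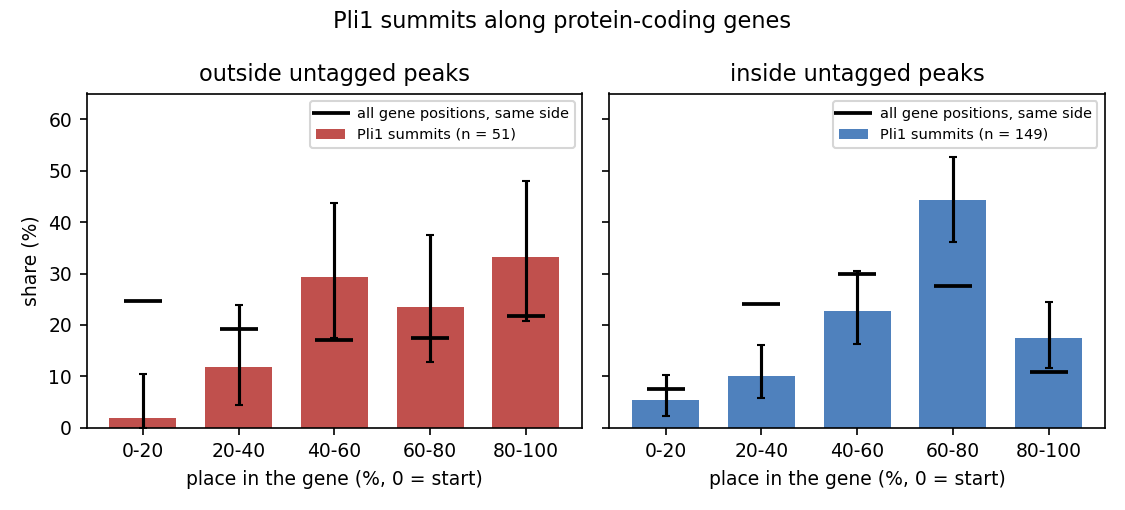
Place of the Pli1 summit along protein-coding genes (horizontal axis, % of the gene from its start) as a share of the summits in genes (vertical axis, %), for summits outside untagged peaks (left, n = 51) and inside (right, n = 149). Bars carry exact 95% intervals and black marks give all gene positions on the same side. The first 20% of the gene held 1.96% of outside and 5.37% of inside summits.

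Inside untagged peaks, the Pli1 summit was close to the untagged summit. Of 164 inside summits, 136 lay within 100 bp of it (82.9%, interval 76.3 to 88.3%), 106 within 50 bp and 31 within 10 bp, with a median of 28.5 bp. The peaks that held a Pli1 summit had a median length of 706.5 bp and a median untagged score of 326.5. The 3362 peaks that held none had medians of 555 bp and 125. Being inside was what chose these summits, so the distances describe them and are not separate support.

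Of all 3526 untagged peaks, 4.65% held a Pli1 summit, and the share fell with the untagged rank. It was 5 of the 10 highest peaks (50.0%), 15 of 40 at ranks 11 to 50 (37.5%), 12 of 50 at ranks 51 to 100 (24.0%) and 28 of 150 at ranks 101 to 250 (18.7%). It was 9.6% at ranks 251 to 500, 5.6% at 501 to 1000, 3.2% at 1001 to 2000 and 1.31% at 2001 to 3526. The Pli1 list has 1 summit a region, so that most of the 3526 peaks could not hold one.

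**Figure D5:**
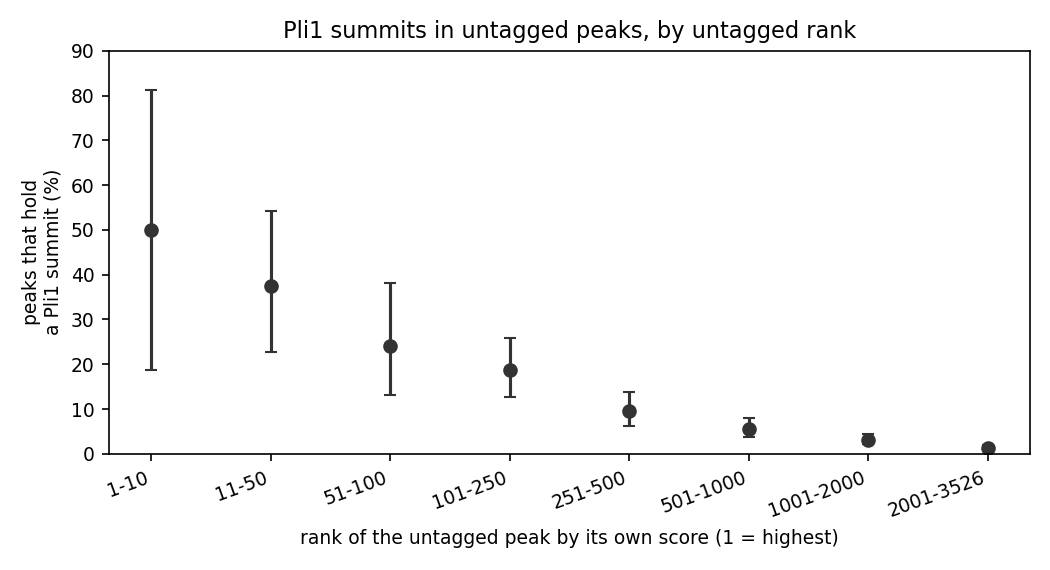
Share of untagged peaks that hold a Pli1 summit (vertical axis, %) by the rank of the peak in the untagged list (horizontal axis, rank 1 highest), with exact 95% intervals. The share was 50.0% for ranks 1 to 10 and 1.31% for ranks 2001 to 3526.

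The 10 highest untagged peaks did not all hold a Pli1 summit. A Pli1 summit lay in those at ssa2 (untagged score 2584, Pli1 score 5228), SPNCRNA.7192 (untagged 1306), rps1001 (untagged 1268), dbp2 (untagged 1117) and SPAC750.08C (untagged 1111, Pli1 2341). None lay in those at rpp0 (1636, a ribosomal stalk protein), gar2 (1262, a nucleolar protein), SPBC23G7.13C (1241), pabp (1143, poly(A)-binding protein) and wwm2 (1142). Each of these peaks nonetheless lay within a called Pli1 region whose only summit was elsewhere. The lack of a summit there is therefore not a lack of a Pli1 call. From the untagged summit to the nearest Pli1 summit it was 78394 bp at rpp0, 19223 bp at gar2, 11630 bp at SPBC23G7.13C, 25634 bp at pabp and 27488 bp at wwm2.

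The inside summits were also placed by the untagged scores within their own Pli1 region, which describes summits already chosen for lying in a peak. Of these, 150 were in regions with at least 2 untagged peaks (median 12), and 61 of them lay in the highest-scoring peak of the region (40.7%, interval 32.7 to 49.0%) and 115 in 1 of the 3 highest (76.7%). Across the 164 inside summits the Pli1 and untagged scores were correlated (Spearman's rho 0.551, and 0.516 over the 136 in regions of at least 10 kb). The sites share 2 libraries, and this is a description without a p-value. Of the 120 outside summits, 82 were in regions that did hold untagged peaks, and lay a median of 10274 bp from the highest of them.

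The sequence around the summits also differed, beside the same difference between the positions open to each set. Median AT content over 500 bp was 62.3% for outside summits and 57.9% for inside summits. Genome positions had 65.0% outside and 59.0% inside untagged peaks, so that both sets were below their own side. The 16 outside summits at tRNA genes had 67.4%. A repeated 50-mer lay within 150 bp of 29 outside summits (24.2%, interval 16.8 to 32.8%, against 4.79% of positions) and of 26 inside summits (15.9%, interval 10.6 to 22.4%, against 6.52%). How far repeated sequence bears on either set was not tested.

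The nearest summits on each side of a peak edge were these. Outside, SPBC1E8.02 lay 286 bp from an untagged peak (score 1347), asn1 290 bp (3578), SPBTRNAPRO.07 348 bp (3125), taf1 349 bp (1757) and mca1 360 bp (1572). Inside, a summit between ell1 and qcr1, which is the summit beside SPBTRNAASN.02, lay 6 bp from the edge (2855), glo1 20 bp (2286), btf3 24 bp (2182), arp9 25 bp (1976) and wis4 51 bp (2813). No outside summit was nearer than 286 bp to an edge.

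In the Nse2-12Pk list, which has 62 regions, a summit lay within 500 bp of 9 outside Pli1 summits (7.5%, interval 3.49 to 13.8%) and of 21 inside ones (12.8%, interval 8.1 to 18.9%). Of the 16 outside summits at tRNA genes, 1 had an Nse2 summit within 500 bp.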

How the data were processed

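Peak lists of the Pli1-12Pk, untagged and Nse2-12Pk ChIP libraries (3 lists, 1 library each, not pooled) were used. Values are whole-number scores as deposited by the authors. The sources used here give no scale, call threshold, calibration factor or depth. Columns 7 to 9 of the deposited lists hold 0 throughout and were not used. Per the file headers, the track of p-values behind the calls held uniquely mapped reads. Named in the submitters' processing notes are MACS3, SAMtools, Bowtie2 and cutadapt, with sacCer3, the build of the calibrator. The sources used here name no fission yeast build, and sequence names and versions match ASM294v3.

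A summit is the region start plus the deposited offset, and counted as inside when its base lay in an untagged peak. Features were assigned by priority (small RNA genes, coding sequence, untranslated region, intron, lncRNA). Classes and gene lists used a window of 200 bp; 3 of 150 listed symbols were not found. Genome positions, for comparison, were every base or every 50th base (place in gene, AT content, repeats). Centromere intervals are those of PomBase. Code was written in Python 3.11.15 with NumPy 2.4.6, SciPy 1.17.1 and Matplotlib 3.10.9 and tested on simulated data. No test was planned or made, since each group has 1 library.

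Named loci were the 15 highest summits of each set, small RNA and ribosomal protein genes beside outside summits, members of lists with 5 or fewer summits in a set, the 5 summits nearest a peak edge on each side and the 10 highest untagged peaks. Members and lists were chosen with earlier results of these data known. Alternatives changed the untagged list, its peak edges, the Pli1 regions used, the windows and the merging of regions.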

Additional observations from a re-analysis of the deposited data

How the results depend on the processing

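Of 237 alternative values, 193 stayed within the interval of the value reported. The share inside (57.7%) moved to 63.7% with untagged peaks widened by 500 bp, 39.4% with the 1000 highest untagged peaks, 63.8% in regions of at least 10 kb, 39.4% in shorter ones and, chosen after seeing the data, 66.7% in regions that touch an untagged peak. The tRNA share outside (13.3%) moved to 2.33% in regions under 10 kb, 21.8% among the higher-scoring summits (above the median), 1.1% without repeated 50-mers and 5.83% with no window. Inside (1.83%) it was 0.0% in regions under 10 kb, with regions merged, without repeats and with no window. The ribosomal protein share was 0.0% outside with regions merged (main 7.5%), and inside (14.6%) 3.57% in regions under 10 kb and 21.8% among the higher-scoring summits. The coding share, chosen after seeing the data, outside (34.2%) was 51.2% with the 1000 highest untagged peaks, 20.9% in regions under 10 kb and 25.5% among the higher-scoring summits, and inside (88.4%) 50.0% with regions merged and 79.3% among the higher-scoring summits. The share of outside summits with AT content above the genome median (37.5%) was 18.3% over 100 bp. Merging regions that lay within 500 bp of each other left 22. The causes were not tested beyond these subsets. No paired analysis was possible because each group has 1 library, and no library could be left out. The lists give no depth, so a site without a call cannot be told from one under the threshold, and 1 summit a region hides other sites in long regions.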

Other observations

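Some of the highest inside summits were at regulatory lncRNAs. No summit lay within 200 bp of the 12 listed iron and phosphate genes, where 1.41% (outside) and 3.19% (inside) of all protein-coding genes had one. That list leaves out the phosphate transporter gene pho842, which held an inside summit (Pli1 score 3874, untagged score 397). The lncRNA summits below were picked with their values in view. The summit in prt2, a transcript read toward the phosphate transporter gene pho84, had a Pli1 score of 13463 and lay 816 bp from pho84. Its untagged score was 157, above the median of 129 for all untagged peaks. The summit in nc-tgp1, a transcript read toward the phosphate-responsive gene tgp1, had a Pli1 score of 4932 and an untagged score of 91. The lncRNA nam1, upstream of the mating kinase gene byr2, had 8527 and an untagged score of 257, with byr2 407 bp away. The values in prl53 were 7048 and 219. Over the 10 inside summits in lncRNA genes alone, Pli1 scores ran from 3013 to 13463 with a median of 6551.5, compared with 2369 for the 145 in coding sequence. These 10 include SPNCRNA.7192 (11678), SPNCRNA.7199 (4665), SPNCRNA.7210 (3524) and SPNCRNA.7216 (3013), which lie in repeated sequence of centromere 3. The median therefore does not describe regulatory lncRNAs alone.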
